A study of Homo sapiens with 8 samples.

Results

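The CCN genes encode a small family of secreted matricellular proteins, and 5 of its members were followed here in human podocytes after induction of the Hippo kinase LATS2: CTGF (current symbol CCN2), CYR61 (CCN1), NOV (CCN3), WISP1 (CCN4) and WISP2 (CCN5). They were taken by gene name from a deposited table of 29004 loci, and all 5 had exactly 1 locus there. AB8/13 is a conditionally immortalized human podocyte line. The cells compared belonged to 1 stable derivative of it that carries a doxycycline-inducible LATS2 wild-type construct from the lentiviral pINDUCER system. In the LATS2 OE group 4 samples had received doxycycline at 125 ng/mL for 8 h, and the 4 untreated samples of the same line had received none. The construct was present in both groups, and doxycycline and LATS2 changed together, so their effects cannot be told apart. The comparison addresses which genes respond early to Hippo activation.

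CCN proteins are built from shared modules, an N-terminal module like that of the insulin-like growth factor binding proteins (IGFBP), a von Willebrand factor C module, a thrombospondin repeat and, in all but WISP2, a C-terminal cystine knot. They bind integrins, heparan sulfate proteoglycans and growth factors and tune how cells attach to and read the extracellular matrix. CTGF and CYR61 are widely used readouts of the Hippo pathway. When LATS kinases are inactive, YAP and TAZ enter the nucleus, bind TEAD factors and switch on both genes, and LATS phosphorylation takes YAP and TAZ out of the nucleus. CTGF is also induced by TGFß through SMAD factors and is known for its part in kidney fibrosis.

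The promoter of CTGF is shown because it carries the TEAD sites through which YAP is known to act. Of the 5 genes, only CTGF was matched by name to an entry in the RefSeq promoter table used (GRCh38.p14). An unmatched name does not show that the promoter is missing there. The 250 bases upstream of its annotated start were found once on chromosome 6 of GRCh37, the build of the deposited table, at chr6:132272513-132272762 on the minus strand. They read as follows, with each match to the TEAD motif GGAATG in capitals.
CTGF: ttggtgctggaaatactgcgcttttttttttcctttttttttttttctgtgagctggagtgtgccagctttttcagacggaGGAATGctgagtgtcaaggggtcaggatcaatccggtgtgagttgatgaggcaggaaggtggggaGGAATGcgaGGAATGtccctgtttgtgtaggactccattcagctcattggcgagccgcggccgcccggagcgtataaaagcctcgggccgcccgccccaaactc

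The 3 TEAD matches begin 169, 104 and 95 bases before the start, all on the coding strand, and the last pair is separated by a few bases only. Of 35116 RefSeq promoters scanned on both strands from 250 bases before to 50 after the start, CTGF included, 14% held at least 1 match to GGAATG and 0.128% at least 3. The CTGF window also held 1 match to the SMAD motif CAGAC, 177 bases before the start, and 1 to the TATA box letters TATAAA, 32 bases before it, which 45.3% and 11.5% of promoters held at least once. It held 0 matches to the AP-1 motif TGANTCA, found in 7.71% of promoters. None of the matches in the CTGF window overlapped another. A match shows only that the letters are there.

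The table gives 1 pooled value per group in FPKM, the fragments of a gene scaled to its exon length and to sequencing depth. Values of single samples, a spread between replicates and a test could therefore not be computed, and every difference below is without a replicate check. The table holds no read numbers, and the methods state a read number without its split over the samples, so the depth behind each group value is not known exactly. The decimal points of many values between 1 and 1000 FPKM had been lost, and they were restored by keeping only those pairs of group values whose ratio met the deposited one. Among 20636 loci above 0 in LATS2 OE and untreated cells alike, this left a single ratio for 20626. For many genes this left several possible levels, apart by powers of 10, and CTGF, NOV and LATS2 are given at each of them. Loci that reached 1 FPKM in each group, 12212 in all, are called expressed loci, and the 8076 loci that stayed under it in each group are called low loci. Ratios are given as log2 of LATS2 OE over untreated. LATS2 itself, on the minus strand of chromosome 13, had 53.1 FPKM in LATS2 OE cells and 2.64 FPKM in untreated cells, or 531 and 26.4 FPKM, a log2 ratio of 4.33, and no other locus had a higher ratio. Its locus does not separate the construct from the endogenous gene. Of 13 podocyte markers, 6 were expressed by this measure, among them SYNPO and PODXL and, as the highest, VIM with 1365 and 1224 FPKM in LATS2 OE and untreated cells, while the slit diaphragm gene NPHS1 had 0.00616 and 0.00875 FPKM in LATS2 OE and untreated cells. Of 7 endothelial markers 0 were expressed, and KDR was listed at 0 in LATS2 OE cells. Of the mesangial and stromal markers 2 of 7 were expressed, of the tubular markers 1 of 8 and of the leukocyte markers 1 of 6.

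CTGF and CYR61 were both lower in LATS2 OE than in untreated cells, NOV was slightly higher, and WISP1 and WISP2 were close to absent from both groups. CTGF, a matricellular growth factor cofactor of fibrosis and wound repair, was 5.06-fold lower. CYR61, an integrin ligand induced by serum and stretch, was 2.55-fold lower. In RNA of whole cultures, fewer cells that express a gene and less of its RNA per cell cannot be told apart. Thus 2 of the 5 genes were lower by 2-fold or more, as were 2.94% of all 20626 loci with a ratio and 0.565% of the expressed loci, the class of these genes. Of the 5 genes, 0 were higher by 2-fold or more, against 3.9% of all loci, 0.328% of expressed loci and 9.27% of low loci. At a difference of 1.5-fold, CTGF, CYR61 and WISP2 were lower and WISP1 higher. This holds for 6.61% (lower) and 8.67% (higher) of all loci, and for 1.85% and 1.32% of the expressed loci, but for 13.4% and 19.5% of the low loci, to which WISP1 and WISP2 belong.

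CTGF had 56.4 FPKM in LATS2 OE cells and 285 FPKM in untreated cells, or 5.64 and 28.5 FPKM if the decimal point belongs 1 place further left. Its log2 ratio was -2.34 at either level, so that 19.8% of the untreated value was left after 8 h. Only 2 expressed loci had a lower ratio, and both carry names of small RNAs, MIR1260B (-2.82) and SNORD124 (-2.46), although they span 366673 and 35540 bp and so take in other transcripts. The direction for CTGF rests here on the deposited ratio that placed its decimal point, since its digits alone would also allow a log2 ratio of 0.98. The paper on the same samples also names CTGF among the genes it found most reduced. That result comes from a Cufflinks comparison of these samples and is not independent of the deposited ratio. The CTGF locus runs from 132269317 to 132272518 on the minus strand of chromosome 6 and is a protein-coding gene whose canonical transcript has 5 exons. In GENCODE the noncoding gene LINC01013 overlaps CTGF exons on the opposite strand, and the libraries were made with a kit that does not mark strand. In the deposited table the LINC01013 locus lies apart from CTGF, from 132455118 to 132490514. It was listed at 0.00593 FPKM in LATS2 OE cells and 0.0176 FPKM in untreated cells. That locus does not cover the exons that overlap CTGF, so a share of opposite-strand reads in the CTGF value was not tested.

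CYR61 had 462 FPKM in LATS2 OE cells and 1181 FPKM in untreated cells, a log2 ratio of -1.35, or 39.1% of the untreated value. Its level is fixed, because its untreated value, like all of 1000 FPKM or more, kept its decimal point, and its ratio was the same when points were placed without the deposited ratio. In units of FPKM the difference of CYR61 was -718, against -229 or -22.9 for CTGF, so the difference was larger for CYR61 in FPKM and larger for CTGF as a fold. Of 85 loci with at least 1000 FPKM in untreated cells, CYR61 had the lowest ratio and was the only member of this set lower by 2-fold or more. Next came IGFBP3, a secreted IGF binding protein with 874 FPKM in LATS2 OE and 1386 FPKM in untreated cells, with a log2 ratio of -0.67. The CYR61 locus runs from 86046444 to 86049648 on the plus strand of chromosome 1, with 5 exons in the canonical transcript, and no other GENCODE gene overlaps it.

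**Figure D1:**
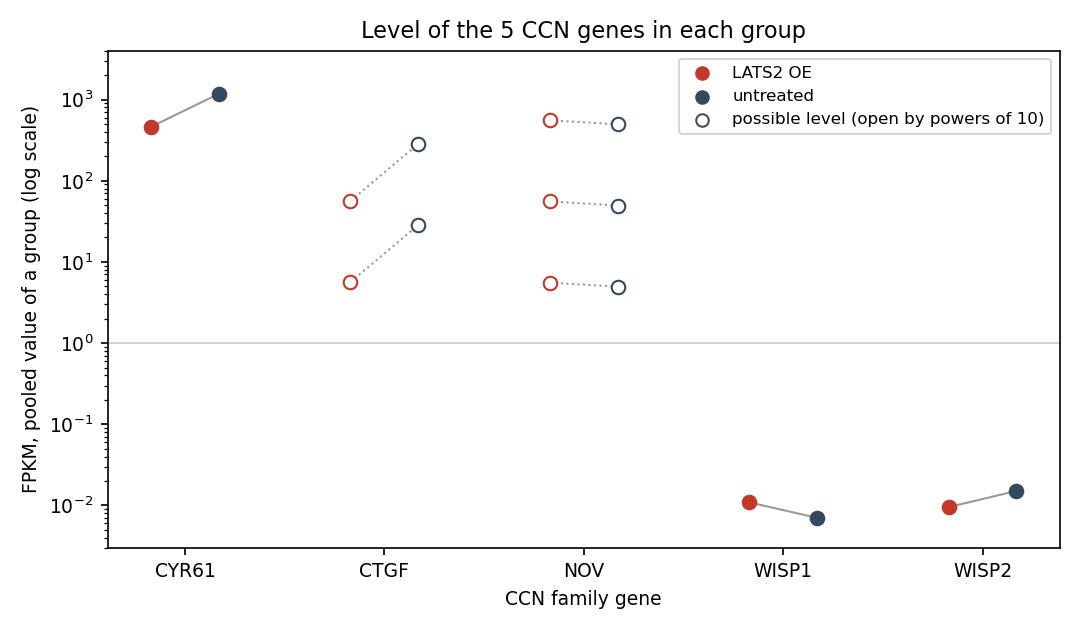
Pooled FPKM of each group on a log scale for the 5 CCN genes, LATS2 OE left of untreated, with filled points where the level is fixed and open points at each possible level. CYR61 (462 and 1181 FPKM) and both possible pairs of CTGF slope up towards untreated cells, the 3 possible pairs of NOV are nearly flat, and WISP1 and WISP2 lie near 0.01 FPKM in both groups.

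The ratios of CTGF and CYR61 differed by 0.99 on the log2 scale, and whether this is more than the spread between samples cannot be computed from pooled values. CYR61 stood above CTGF in both groups. It was 8.19-fold higher in LATS2 OE cells and 4.14-fold higher in untreated cells at the higher possible level of CTGF, and 81.9-fold and 41.4-fold at the lower. FPKM is scaled to length but not to other differences between genes, and a share of opposite-strand reads in the CTGF value was not tested. These folds between the genes are therefore approximate.

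NOV, a CCN protein often found to act against CTGF, did not share the lower level. It had 5.57 FPKM in LATS2 OE cells and 4.95 FPKM in untreated cells, or 55.7 and 49.5, or 557 and 495 FPKM, since 3 places of the decimal point fit. The log2 ratio was 0.17 at each of them, a 1.12-fold difference. Of the 12212 expressed loci, 11.4% had a higher ratio. NOV lies on the plus strand of chromosome 8 from 120428552 to 120436678, and in GENCODE a noncoding gene on the other strand overlaps some of its exon sequence. In untreated cells CYR61 was the highest of the family at every possible level. In LATS2 OE cells the order of CYR61 and NOV is open, because the highest possible level of NOV is above that of CYR61.

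WISP1 and WISP2, named for induction by WNT1 in mouse mammary cells, were near the lower end of detection, as was WISP3 (CCN6), the remaining CCN gene. WISP1 had 0.0109 FPKM in LATS2 OE cells and 0.00702 FPKM in untreated cells, a log2 ratio of 0.63. WISP2 had 0.00954 and 0.0151 FPKM in LATS2 OE and untreated cells, a log2 ratio of -0.66. WISP3 had 0.0126 FPKM in LATS2 OE cells and 0.0116 FPKM in untreated cells, a log2 ratio of 0.12. The deposited table marks these 3 loci as not tested for too few fragments. With the exon length of the GENCODE canonical transcript, WISP1 corresponds to about 1 fragment in 17700000 in LATS2 OE cells and 1 in 27400000 in untreated cells. WISP2 corresponds to about 1 fragment in 82000000 in LATS2 OE cells and 1 in 51900000 in untreated cells. Ratios at such levels scatter widely, and 6.27% of the low loci were lower by 2-fold or more. Of 800 loci between 0.005 and 0.02 FPKM in both groups, 35.25% differed by at least 0.6 on the log2 scale in either direction, and the middle 90% lay between -1.09 and 1.25. The ratios of WISP1, WISP2 and WISP3 all lie inside this range, and these 3 loci are themselves among the 800. The range is a spread over genes and sets no detection limit for a single gene. No difference is read from these 3 ratios. Loci outside the FPKM window in either group were left out of the 800, so the scatter at this level may be wider still. WISP1 lies on chromosome 8 from 134203282 to 134243932 and WISP2 on chromosome 20 from 43343885 to 43356452, both on the plus strand.

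**Figure D2:**
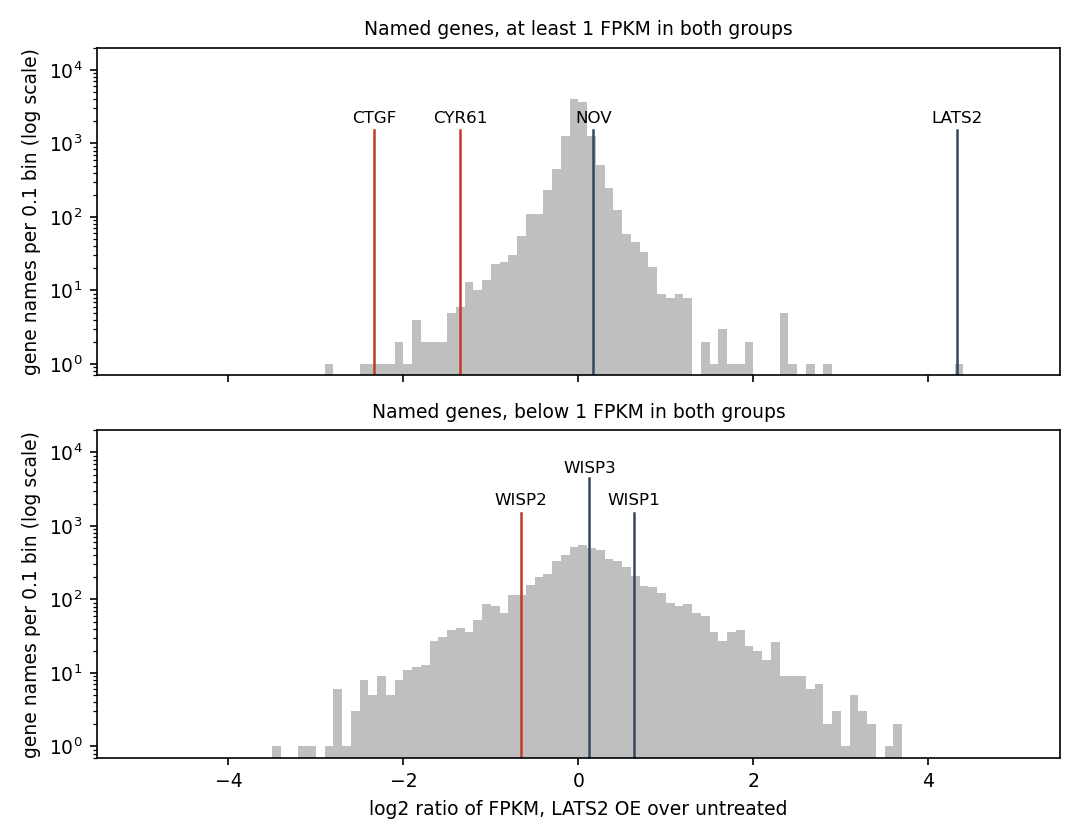
Number of named genes per 0.1 bin of the log2 ratio of FPKM, LATS2 OE over untreated, on a log count axis, for expressed genes (top, 1 FPKM or more in each group) and low genes (bottom, under 1 FPKM in each group), with vertical lines at the CCN genes and LATS2. CTGF (-2.34) and CYR61 (-1.35) stand in the sparse lower tail of the upper panel and NOV (0.17) inside its peak, while WISP1, WISP2 and WISP3 lie within the broad lower panel.

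The scatter of all genes gives the scale for these values. The median log2 ratio of all 20626 loci was 0.0064. The middle 95% of ratios lay between -0.52 and 0.43 for expressed loci, and between -1.47 and 1.78 for low loci. CTGF and CYR61 lay far outside the first range and NOV inside it. This is a spread over genes of 1 comparison and not an error of any single gene.

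Other targets of YAP and TAZ mostly had ratios below 0, though most were nearer to 0 than CTGF and CYR61. The list had been drawn up from known target genes with earlier results of these data in view. In a list of 19 such genes outside the CCN family, 18 had a ratio, and all 18 were expressed. Their ratio was below 0 for 17 and above 0 for 1, where 51.6% of all expressed loci were below 0. By 2-fold or more 5 were lower and 0 higher, against 0.565% and 0.328% of all expressed loci. The median was -0.51, against -0.0042 over all expressed loci. ANKRD1, a nuclear cofactor of muscle and stress responses, had a log2 ratio of -2.15, AMOTL2, an angiomotin that binds YAP, one of -1.71, TGFB2, a TGFß ligand, one of -1.66 and F3, the coagulation receptor tissue factor, one of -1.34. Of the CCN genes only CTGF was below all 18, and CYR61 stood between TGFB2 and F3.

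Of the expressed genes of other proteins with an IGFBP-type module and of other matricellular proteins, 0 differed 2-fold, as did few of all expressed loci (0.565% lower and 0.328% higher). Of 11 genes of IGFBP-module proteins, 7 were expressed, 5 with a ratio below 0 and 2 above, with a median of -0.02. IGFBP3 was the lowest of them, followed by CRIM1, a transmembrane protein with cysteine-rich repeats, at -0.49 (105 and 147 FPKM in LATS2 OE and untreated cells) and IGFBP5 at -0.37, and IGFBP6 had the highest ratio at 0.23. IGFBP3 and CRIM1 are also on the list of YAP/TAZ targets. Of 16 other matricellular genes, 6 were expressed, 2 with a ratio below 0 and 4 above, with a median of 0.12. TNC, the adhesion-modulating protein tenascin C, had the highest ratio at 0.86, SPP1 (osteopontin) had 0.33, TGFBI 0.22 and EFEMP1 (fibulin 3) -0.28. THBS1 (thrombospondin 1) was listed at 0 in both groups and marked as a locus with too many fragments to process, so it gives no ratio.

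Receptors and binding partners of CCN proteins had ratios on both sides of 0. Of 18 such genes with 19 loci, 15 loci were expressed, 7 with a ratio below 0 and 8 above, with a median of 0.02. Of these 0 differed 2-fold, a count near the background of 0.565% lower and 0.328% higher. The integrin subunits ITGAV, ITGB5 and ITGB1, which bind CTGF and CYR61, had log2 ratios of 0.03, 0.02 and 0.02, and ITGA5 had 0.26. ITGA6 has a pair of loci at the same coordinates, with log2 ratios of -0.32 and -0.02. LRP1, an endocytic receptor of CTGF, had 10.9 FPKM in LATS2 OE cells and 9.33 FPKM in untreated cells, a log2 ratio of 0.22. TNFRSF11B, the secreted decoy receptor osteoprotegerin, which binds CTGF, stood apart at -0.93. The factors known to regulate CCN transcription were also within 2-fold, with 15 of 15 genes expressed, 8 with a ratio below 0 and 7 above, and a median of -0.02. YAP1 had a log2 ratio of 0.08, WWTR1, which encodes TAZ, one of -0.40, TEAD1 and TEAD4 -0.35 each, and the TGFß effector SMAD3 had 0.45.

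**Figure D3:**
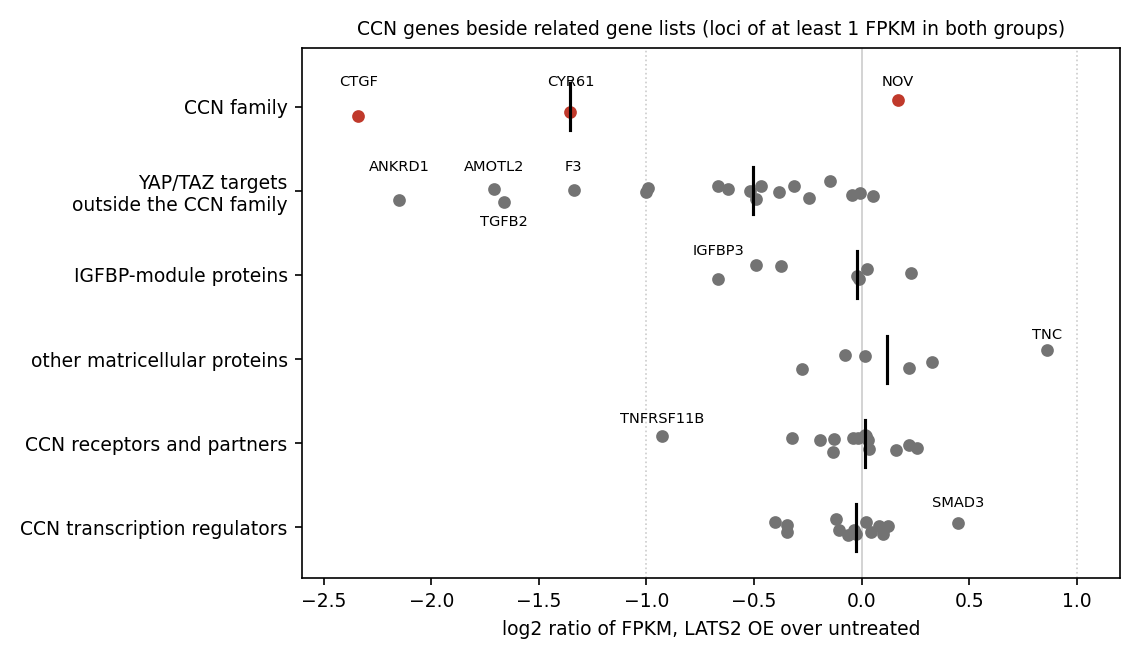
Log2 ratio of FPKM, LATS2 OE over untreated, for expressed loci, with 1 point per locus, the CCN genes in red, black bars at list medians and dotted lines at a 2-fold difference. CTGF is the lowest point of the plot, 5 YAP/TAZ targets besides CYR61 lie past 2-fold lower, and the receptor and regulator lists centre near 0.

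By nearness of the log2 ratio alone, over 2 group values, the named expressed loci most like CTGF were MIR1254-1 (-2.30), SNORD124 and ANKRD1. The MIR1254-1 locus spans 71234 bp, far more than a microRNA precursor. Those most like CYR61 were ZBED2, a zinc finger factor, and PLK2, a stress-induced kinase (-1.35 each), and F3. With only 1 contrast, such likeness says that the ratios are close and no more.

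The number of TEAD matches varied among the promoters of the other targets. Of the 19 listed YAP/TAZ targets, 14 were matched by name to a promoter in the RefSeq table. Of these, 5 held at least 1 TEAD match, as did 14% of all 35116 promoters. ANKRD1 and NUAK2 held 2 each and TGFB2 held 1, whereas AMOTL2 and F3 held 0 in this window. Over all promoters, 1.37% held at least 2. WISP3 held 2 matches at a level near 0.01 FPKM. CTGF was the only one of the plotted genes with 3.

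**Figure D4:**
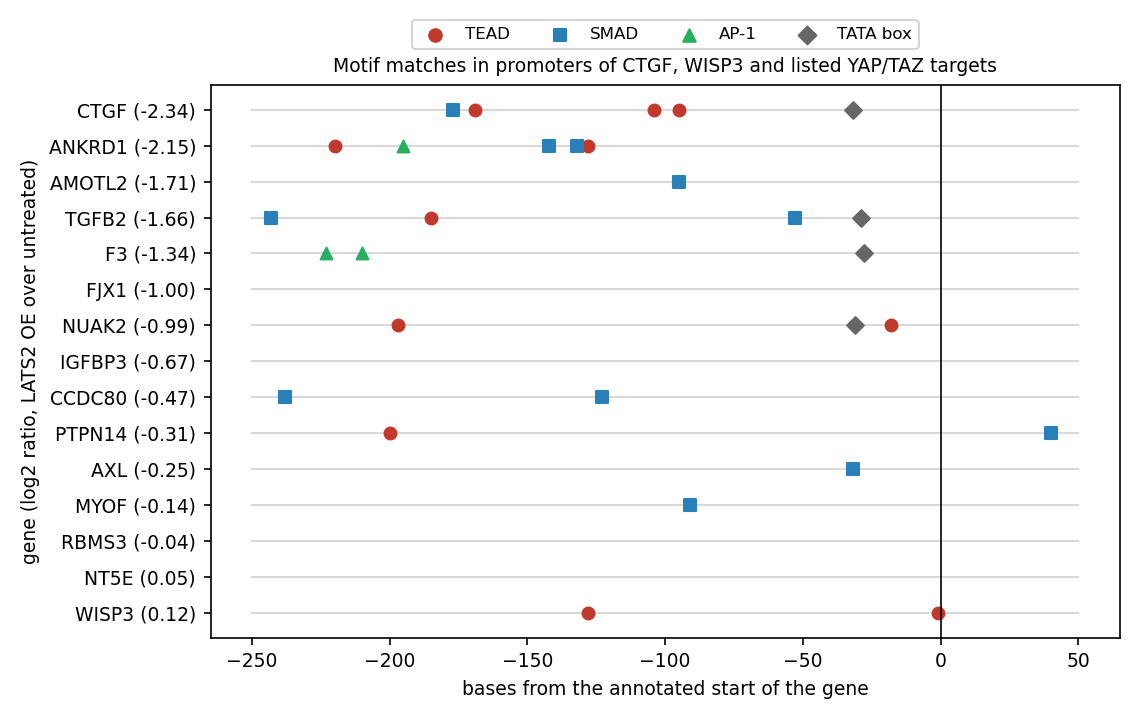
Place of motif matches, in bases from the annotated start of each gene, in the promoters of CTGF, WISP3 and the listed YAP/TAZ targets that had a ratio, ordered by log2 ratio (LATS2 OE over untreated, in brackets). CTGF in the top line holds 3 TEAD matches between 169 and 95 bases before the start, and genes with 0 to 2 matches stand at ratios between -2.15 and 0.12.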

How the data were processed

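RNA of 4 LATS2 OE and 4 untreated samples had been poly(A)-selected and sequenced as single reads. The authors' processing notes name Trimmomatic (0.33), TopHat and Cufflinks and the build hg19. For TopHat, Cufflinks and the gene annotation, no version was stated in the sources used here. The deposited gene table holds 1 pooled FPKM value per group. It also holds the authors' log2 fold changes, test statistics, p-values and q-values, which were not used as results. The log2 column was read only to place decimal points.

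In many FPKM cells of 5 or 6 digits the point had been moved, while others, such as those of CYR61, had kept it. Each cell was given its possible values (divided by 1, 10 or 100), and pairs whose log2 ratio met a possible deposited value within 0.002 were kept. Of the loci fitted, 27 would take another ratio if the pair nearest to equality were chosen. Ratios used no pseudocount. Counts used a 2-fold difference. No test was possible, and it is not stated whether samples came from separate cultures.

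Named genes were the members, LATS2, WISP3, up to 4 genes of each list other than markers with the largest absolute ratio at 1 FPKM or more, markers at 0 or highest in their list, and the nearest 3 loci to CTGF and CYR61. SYNPO, PODXL, NPHS1, NUAK2, ITGAV, ITGB1, ITGB5, YAP1, LINC01013, THBS1, MIR1260B and the genes with 3 TEAD matches were named after their values were seen. Some podocyte markers are not reported here by name. The members, lists and motifs were chosen with earlier results of these data known. GENCODE v44 on GRCh37 gave annotations. Python 3.11.15 with pandas 2.3.3 was used.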

Additional observations from a re-analysis of the deposited data

How the results depend on the processing

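Placing decimal points without the deposited ratio, at the pair nearest to equality, reversed CTGF, with a log2 ratio of 0.98. It left 1 CCN gene lower by at least 1 in place of 2. The paper itself reports CTGF as reduced, but from a Cufflinks comparison of the same samples, so this is not independent of the deposited ratio. CYR61, NOV, WISP1 and WISP2 kept their values without the deposited ratio. For WISP1 and WISP2 this holds by construction, as values below 1 FPKM had kept their decimal points. A pseudocount of 1 FPKM gave -2.15 for CTGF at its lower possible level. For WISP1 a pseudocount of 0.1 FPKM gave 0.0513 and one of 1 FPKM 0.0055, and for WISP2 -0.0710 and -0.0079, by construction, as both are far below it. Counts of all loci followed the filter and fold chosen. Restricting them to expressed loci gave 69 lower and 40 higher loci, and a fold of 1.5 gave 1364 and 1788, against 607 and 805. A wider tolerance of 0.01, run only for the ratios of the 5 CCN genes, and centring on the median changed no direction. They moved no ratio by 0.05 or more on the log2 scale. Centring on the median and leaving out loci with several names moved no count by over 1.5 times. Centring shifts every ratio by the median of 0.0064, and no CCN gene lies in a locus with several names. By construction, neither of these settings could move the CCN ratios by more than that. Leaving out single samples could not be run. No paired analysis was possible because the table holds 1 pooled value per group. The read number of each sample is not known, and the precision of levels near 0.01 FPKM was judged from the scatter of other loci at that level.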

Other observations

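Genes were also grouped by the number of TEAD motif matches in their RefSeq promoters, a description made after the values were known. Of 9767 expressed genes (1 FPKM or more in each group) with a promoter matched by name, 11 held 3 or more matches. CTGF was the only one of them lower by at least 1 on the log2 scale in LATS2 OE cells. WTIP, a LIM domain protein of the Ajuba family that was first described as a partner of the podocyte factor WT1, came next with a log2 ratio of -0.74. The median of the 11 was -0.09, and 2 of them, ARPIN and its readthrough with AP3S2, share 1 locus value. Of 8704 genes with 0 matches, 30 (0.345%) were lower by at least 1, with a median of -0.0016. Of 71 genes with 2 matches 1 was, with a median of -0.03, and this gene was ANKRD1 from the list of YAP/TAZ targets. CTGF and ANKRD1 were both chosen with earlier results of these data known, so these counts are no independent sign of an effect of the motif, which was not tested. Of 981 genes with 1 match, 4 (0.408%) were lower by at least 1, with a median of -0.0054. By the same amount 18 genes with 0 matches, 2 with 1 match and 0 with more were higher.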
